A study of Mus musculus with 8 samples.

Results

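The immediate early genes described here are 10 rows of the 27998 gene rows in the matrices: Fos, Fosb, Jun, Junb, Jund, Egr1, Klf6, Atf3, Ier2 and Zfp36. They were found by their symbols, and all 10 were present in both matrices. The genes were selected by name after earlier values of these same matrices had been seen, among them the difference between knockout and control, so their levels and ratios are given below as a description without a test. Single epithelial cells carrying EpCAM, a surface protein of epithelia, and excluding the dead-cell stain DAPI had been sorted from small intestinal crypts. The study describes the mice of both groups as 10-week-old females, and its mice as of C57BL/6 background. The group labelled KO was homozygous for the deletion of ieCtnnb1, an intestinal enhancer upstream of Ctnnb1, the β-catenin gene (Ctnnb1Δi.enh). The group labelled WT carried, per the methods of the study, a LacZ reporter driven by the same enhancer at the H11 locus (H11i.enh), and thus were reporter mice. Although 4 samples are listed per group, the cells of a group stand in 1 pooled matrix with no mark of the animal. The figure legends of the study differ in the number of animals, so the number in each pool is not settled here. Every comparison of KO with WT is therefore between 1 pool and 1 pool, has no replicate check, and cannot be told apart from a difference in how the pools were prepared.

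Immediate early genes are transcribed within minutes of a stimulus from factors that are already present in the cell, such as SRF with its ternary complex partners and phosphorylated CREB, and most of their transcripts are unstable. Fos and Jun proteins form the dimer AP-1, in which the Fos proteins and the Jun proteins bind DNA together, whereas Egr1 and Klf6 are zinc finger factors, Atf3 is a stress-induced factor of the bZIP family, and Zfp36 encodes tristetraprolin, which binds AU-rich elements and speeds the decay of such transcripts. In the intestinal epithelium they respond to growth factors, injury and microbial signals, and they are also known to respond to the dissociation of tissue into single cells.

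Kept barcodes had at least 200 genes with a unique molecular identifier (UMI, the tag that marks 1 captured transcript) and at most 30% of their UMIs from mitochondrial genes. These were 13095 of 15987 barcodes in WT and 8658 of 12763 in KO, with a median of 6675 UMIs in WT and 8692 UMIs in KO. Barcodes over the mitochondrial limit made up 12.7% of WT and 32.1% of KO barcodes with enough genes, and kept barcodes under 1500 UMIs made up 19.1% in WT and 32.1% in KO. The matrices shared 57 barcodes, of which 29 were kept in both. Ctnnb1, whose enhancer was deleted, made up 119 of every 1000000 UMIs of the pool (119 CPM, the unit used below) in WT and 91.8 in KO, with a log2 ratio of -0.37 (95% counting interval -0.41 to -0.34). The 11 lymphocyte markers together had 2.68 CPM in WT and 2.29 CPM in KO, and 10 stromal, endothelial and red cell markers had 0.328 and 0.111 CPM, while 86.3% of WT and 83.5% of KO kept cells had a UMI of Epcam.

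Kept cells with at least 1500 UMIs were gated by fixed markers into 8 classes: CBC-like (crypt base columnar stem cells, 575 WT and 437 KO cells), TAC-like (dividing transit-amplifying cells, 1353 and 659), PC-like (Paneth, 3346 and 1312), GC-like (goblet, 1349 and 727), EEC-like (enteroendocrine, 177 and 85), TC-like (tuft, 104 and 73), imEC-like (immature enterocytes, 485 and 373) and mEC-like (mature enterocytes, 1282 and 845). No member was a marker. In each gate all held-out markers of the class were at least 2-fold above the other cells, and no marker of another class was among the first 10 genes. KO cells were deeper in every class, with a median of 12972 UMIs against 2964 UMIs in EEC-like cells and 8955 against 5567 in mEC-like cells.

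The members lie on 7 chromosomes of GRCm38, with Junb, Jund and Ier2 on chromosome 8 and Fosb and Zfp36 on chromosome 7. Fos is on the forward strand of chromosome 12 at 85473890 to 85477273, Fosb on the reverse strand of chromosome 7 at 19302696 to 19310051, Jun on the reverse strand of chromosome 4 at 95049034 to 95052222 and Junb on the reverse strand of chromosome 8 at 84974484 to 84978718. Jun, Jund, Ier2 and Zfp36 have 1 exon block each, that is, no intron in the merged annotation. Another gene is annotated on the opposite strand over 5 members, among them Prdx2 over Junb and Junos over Jun. The methods give default parameters of Cell Ranger, which count reads in the sense direction of a gene. The stretches just upstream of the start of transcription of 4 AP-1 genes are shown because Fosb, Jun and Fos differed most between the matrices within the AP-1 family and Junb much less. They come from RefSeq promoters on GRCm38.p6 and read in the direction of transcription, ending 1 base before the RefSeq start, or 7 bases before it in Fosb. Capitals mark the core of a cyclic AMP response element (written TGACG, searched on both strands), the CCAAT box and the TATA box (TATAA).
Fos, chr12:85473770-85473889, forward strand: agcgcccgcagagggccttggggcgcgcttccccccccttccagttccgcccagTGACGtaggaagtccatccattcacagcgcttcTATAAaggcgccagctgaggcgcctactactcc
Fosb, chr7:19310052-19310171, reverse strand: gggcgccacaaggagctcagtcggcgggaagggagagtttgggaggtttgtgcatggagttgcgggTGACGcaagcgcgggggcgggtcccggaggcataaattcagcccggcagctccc
Jun, chr4:95052223-95052342, reverse strand: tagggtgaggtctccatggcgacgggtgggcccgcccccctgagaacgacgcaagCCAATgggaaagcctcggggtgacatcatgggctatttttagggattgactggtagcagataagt
Junb, chr8:84978749-84978868, reverse strand: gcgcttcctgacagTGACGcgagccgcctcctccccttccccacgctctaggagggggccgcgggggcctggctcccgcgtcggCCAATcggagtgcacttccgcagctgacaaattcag
Counted from the RefSeq start, the site TGACG began 66 and 129 bases upstream in Fos, 60 bases upstream in Fosb and 106 bases upstream in Junb, and none was found in the 250 upstream bases of Jun. It was found in 4 of the 8 members with a promoter in the table (Junb, Fos, Fosb and Atf3) and in 17.8% of all 32851 promoters of that length. TATAA stood 33 bases before the start of Fos and in 22.8% of all promoters. The CCAAT box was found in 3 of the 8 members (Jun, Junb and Klf6) and in 33.8% of all promoters. GGGCGG, the GC box, was found in 6 of the 8 and in 32.7% of all promoters, and TGANTCA, the site of AP-1 itself, in none of the 8 and in 6.75% of all promoters. The CArG box, the site of SRF, was found in 1 of the 8 (Zfp36) and in 1.47% of all promoters. The RefSeq starts of Atf3, Jund and Zfp36, which are among the 8, lie over 1000 bases from those of GENCODE. TGACG and TGANTCA were searched in these spellings alone. Variants that differ by a base, such as tgacatca in the printed Jun stretch, were not counted. These matches are letters in a window and were not tested for binding.

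Over all kept cells every member had a smaller share of the UMIs in KO than in WT, with the largest differences in Fosb, Egr1 and Jun and the smallest in Jund. Of the 10 members, 5 were at least 2-fold lower in KO (Jun, Fos, Fosb, Atf3 and Egr1), which stands beside 7.37% of the 12767 genes with at least 50 UMIs over both matrices, and none was at least 2-fold higher, beside 3.94% of those genes. The median log2 ratio of the members was -1.07, and that of all genes was -0.05. Since earlier ratios of these genes were known when they were chosen, nothing is read from the distance between these values.

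Fos and Fosb encode Fos proteins, which need a Jun partner to bind DNA. Fosb had 8003 UMIs in WT (61.0 CPM) and 1303 UMIs in KO (11.1 CPM), a log2 ratio of -2.46 (-2.54 to -2.37), the lowest of the members. Fos had 116 CPM in WT and 49.8 CPM in KO, with a log2 ratio of -1.22 (-1.27 to -1.18). Both were thus lower in the KO pool by more than the counting error, and Fosb by far more than Fos.

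The 3 Jun genes differed in their ratios. Jun, the main activating partner in AP-1, had 199 CPM in WT and 66.8 CPM in KO, with a log2 ratio of -1.57 (-1.61 to -1.54). Junb had 51.0 CPM and 37.5 CPM, a log2 ratio of -0.44 (-0.50 to -0.39). Jund, the Jun gene known for the steadiest expression, had 150 CPM in WT and 145 CPM in KO, with a log2 ratio of -0.04 (-0.07 to -0.01), close to that of the median gene, so that relative to that median Jund stood at 0.00. The order Jun, Junb, Jund held with intervals that did not touch.

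Of the zinc finger factors, Egr1 had 85.04 CPM in WT and 20.4 CPM in KO, with a log2 ratio of -2.06 (-2.12 to -1.996), and Klf6 had 43.8 CPM and 22.5 CPM, a log2 ratio of -0.96 (-1.03 to -0.90). Atf3 had 20.7 CPM and 9.12 CPM, a log2 ratio of -1.18 (-1.28 to -1.08). Zfp36 had 28.5 CPM and 15.2 CPM, a log2 ratio of -0.90 (-0.98 to -0.82). Ier2, a small nuclear protein gene of the immediate early response, had 105 CPM and 84.1 CPM, a log2 ratio of -0.32 (-0.36 to -0.28).

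A share of UMIs depends on what else the cells hold. The 14 genes above 1% of all UMIs in a matrix, mostly defensins and other Paneth cell products, took 46.0% of the UMIs in WT and 31.6% in KO. Without them in the denominator the median over all genes was -0.39, that of the members was -1.41, and Jund stood at -0.39, again at the median of all genes. In UMIs per kept cell, which also depends on depth, Jun had 1.99 in WT and 0.905 in KO, Fosb 0.611 and 0.150, and Jund 1.5 and 1.97.

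**Figure D1:**
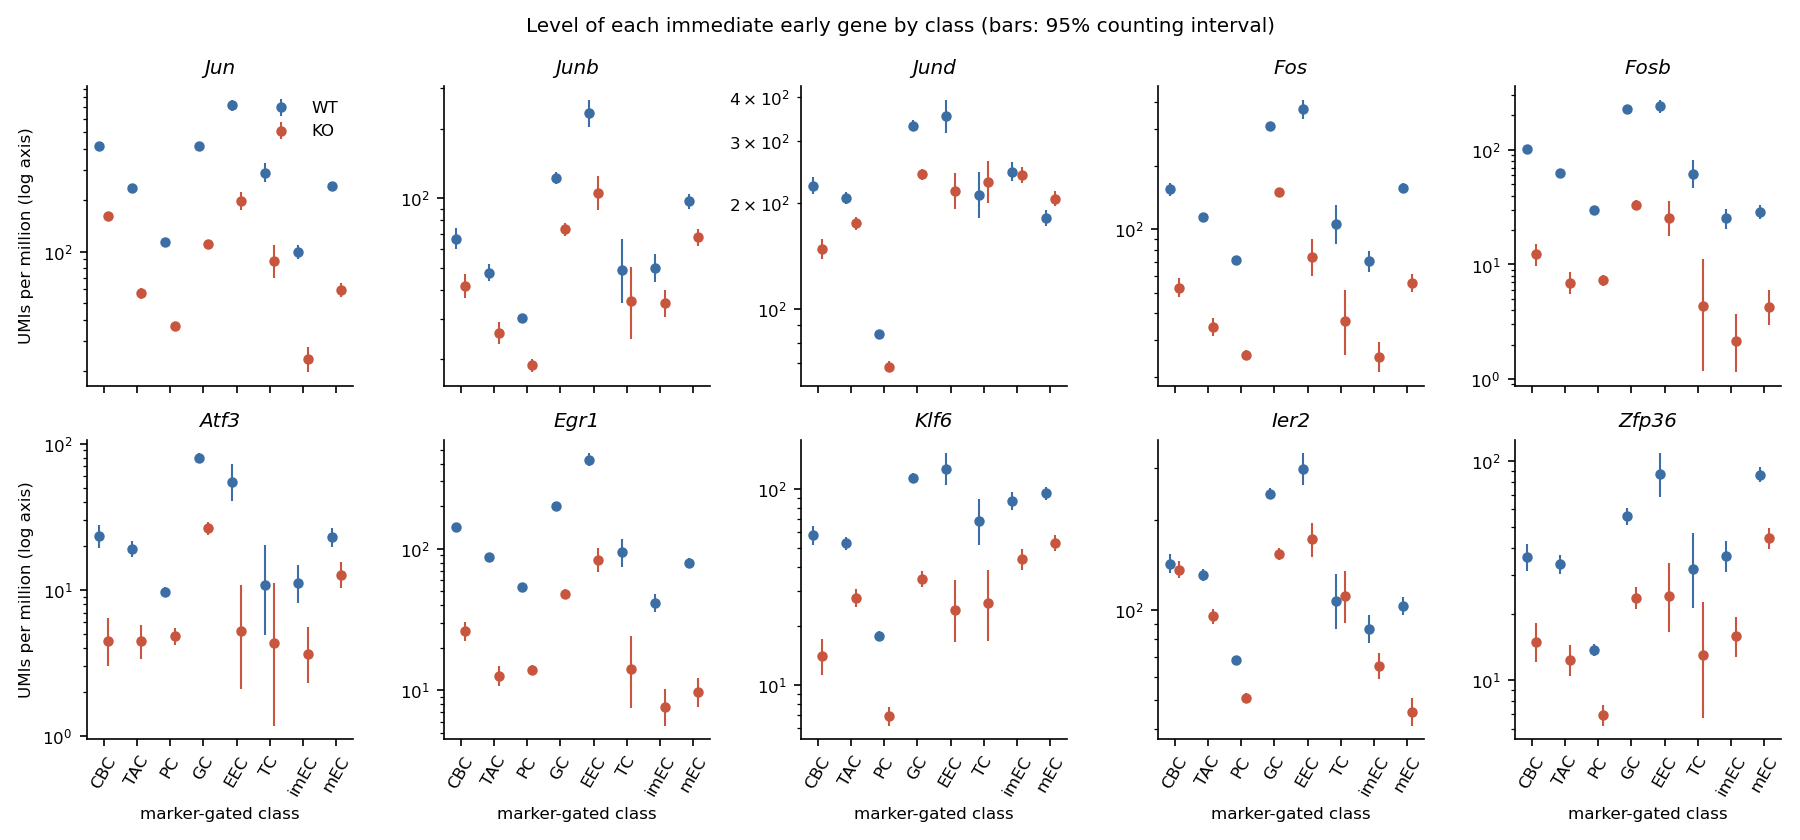
Level of each member in the 8 marker-gated classes, in CPM on a log axis, for the pooled WT matrix (blue) and the pooled KO matrix (red), with bars for the 95% counting interval. EEC-like and GC-like cells stand high in most panels and PC-like cells low, and the KO point lies below the WT point in most classes.

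Across the WT classes the members together were highest in EEC-like and GC-like cells. The 10 genes together had 2908 CPM in EEC-like cells, 2100 CPM in GC-like cells, 1368 CPM in CBC-like cells, 1094 CPM in mEC-like cells, 1031 CPM in TC-like cells, 990 CPM in TAC-like cells, 753 CPM in imEC-like cells and 494 CPM in PC-like cells. The intervals of mEC-like, TC-like and TAC-like cells overlapped between neighbours in this order, and those of the other neighbours did not. In KO the order began with EEC-like cells at 930 CPM and GC-like cells at 897 CPM, whose intervals overlapped, and ended with PC-like cells at 240 CPM. The fold between the highest and the lowest class was 5.89 in WT and 3.87 in KO.

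The low place of PC-like cells went with the share of their UMIs held by the 14 most abundant genes, which was 72.0% in WT and 67.6% in KO, while in TAC-like cells it was 6.59% and 3.96%. As CPM of the remaining UMIs, the members had 1762 CPM in WT PC-like cells, above the 1562 CPM of CBC-like and the 821 CPM of imEC-like cells, and in KO 742 CPM, above the 655 CPM of CBC-like and the 471 CPM of TAC-like cells. EEC-like cells remained highest by that measure, with 3711 CPM in WT and 1005 CPM in KO. WT EEC-like cells were also the shallowest class, and Malat1, a transcript that stays in the nucleus, had 10997 CPM in them against 1179 to 9723 CPM in the other WT classes.

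Single members had their own order of classes. Jun had 718 CPM in WT EEC-like cells (664 to 775) and 99.4 CPM in imEC-like cells (90.0 to 110), a 7.22-fold range, and the order of the 8 classes by Jun was the same in KO, where it ran from 198 to 23.5 CPM. CBC-like cells were second for Jun in both matrices, with 417 CPM in WT, which overlapped the 414 CPM of GC-like cells, and 161 CPM in KO. Egr1 had 428 CPM in WT EEC-like cells and 41.5 CPM in imEC-like cells. Fosb had 241 CPM in WT EEC-like and 229 CPM in GC-like cells, which did not differ beyond their counting error, and 25.2 CPM in imEC-like cells.

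By CPM, Atf3 was highest in GC-like cells in both matrices, with 79.5 CPM in WT and 26.4 CPM in KO. The interval of WT GC-like cells did not reach that of EEC-like cells at 54.8 CPM. With each WT cell drawn down to 1000 UMIs the order turned. Atf3 was then found in 9.60% of EEC-like cells (5.70 to 14.9) and 6.97% of GC-like cells (5.67 to 8.46), with intervals that overlapped. In KO, Jund, Fos and Fosb were also highest in GC-like cells. Zfp36 had 86.6 CPM in WT EEC-like and 86.4 CPM in mEC-like cells, which overlapped, and mEC-like cells were highest for it in KO, with 44.3 CPM. Klf6 was highest in KO in mEC-like cells with 52.9 CPM and imEC-like cells with 43.6 CPM. Jund had the narrowest range, 4.15-fold in WT from 353 CPM in EEC-like to 84.9 CPM in PC-like cells and 3.52-fold in KO.

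Within the classes, KO and WT are compared between cells gated by the same markers. Fosb, Jun, Fos and Egr1 were at least 2-fold lower in KO in all 8 classes. Atf3 was at least 2-fold lower in 6 of the 7 classes with at least 50 UMIs of it, among them PC-like cells at -1.01, where the ratio was 0.46 with cells drawn down to 1000 UMIs and 0.41 between 6000 and 12000 UMIs. This fold was passed by Zfp36 and Klf6 in 5 of 7 and 5 of 8, Junb and Ier2 in 1 of 8 each, and Jund in none. Beside each count of members at least 2-fold lower stands the share of all tested genes that were so. EEC-like cells had the most, 8 of 10 members beside 13.1% of genes, and CBC-like and GC-like cells had 7 of 10 each, beside 11.7% and 12.7%. For 6 of 10 members this held in imEC-like (19.3% of genes), TAC-like (17.8%) and PC-like cells (5.37%). It held for 5 of 10 members in mEC-like cells, beside 20% of genes, and for 5 of the 8 with enough UMIs in TC-like cells, beside 7.49%. Among unassigned cells, 7 of 10 members and 8.52% of genes passed that fold.

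These are shares of UMIs, and in UMIs per cell, with the deeper KO cells, fewer members differed by that much. The ratio of KO to WT in UMIs per cell ran from 0.110 to 0.414 over the classes for Fosb, from 0.192 to 0.653 for Egr1 and from 0.386 to 0.836 for Jun. For Fos it ran from 0.539 to 0.668 in 7 classes and was 1.31 in GC-like cells, with 2.03 UMIs per cell in WT and 2.66 in KO. For the 10 members together it ran from 0.704 in CBC-like to 1.16 in GC-like and imEC-like cells.

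**Figure D2:**
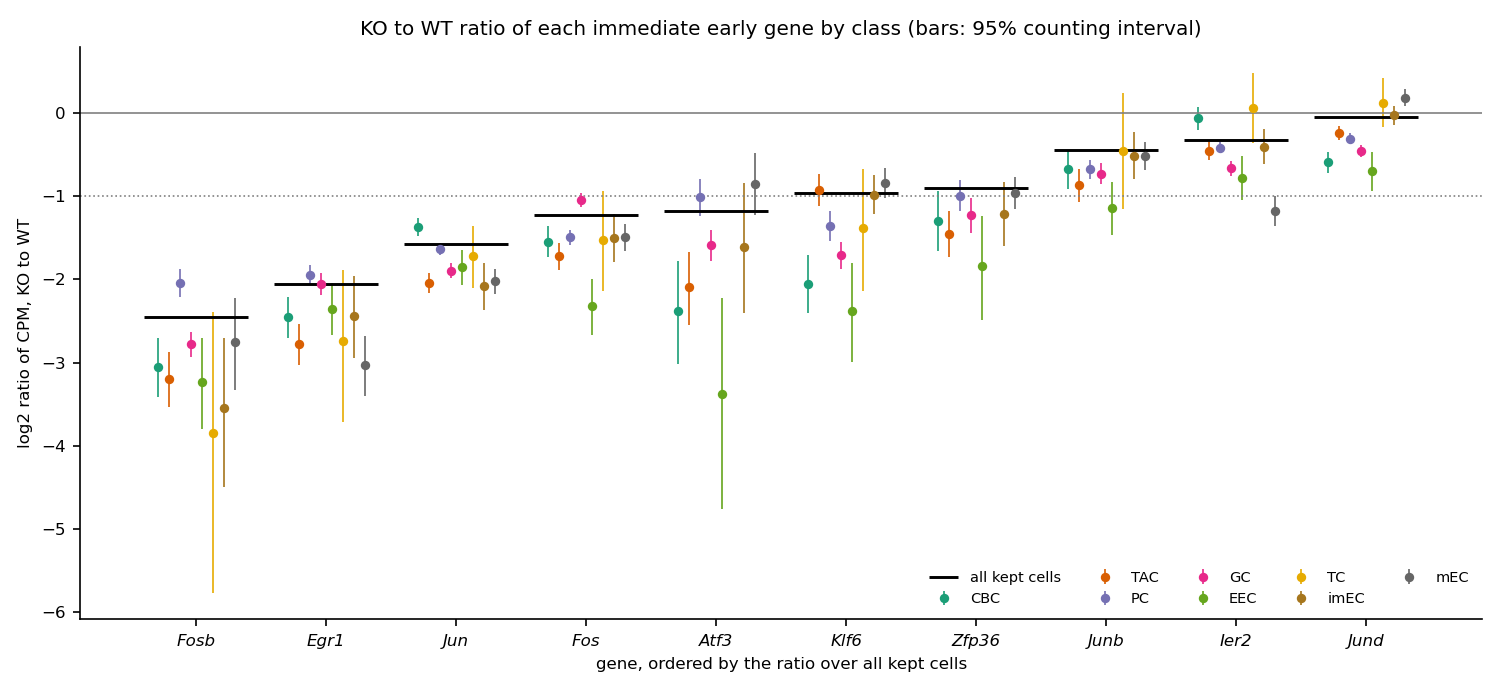
Log2 ratio of the share of UMIs in KO to that in WT for each member, by class (coloured points, bars for the 95% counting interval) and over all kept cells (black lines), with genes ordered by the latter. Points of Fosb, Egr1, Jun and Fos lie at or below -1, the dotted line, in every class, whereas those of Jund lie between -0.70 and 0.18.

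Fosb had the lowest ratios in most classes. It had 101 and 12.2 CPM in WT and KO CBC-like cells, a log2 ratio of -3.05 (-3.41 to -2.71), and 63.5 and 6.93 CPM in TAC-like cells, a log2 ratio of -3.19 (-3.53 to -2.87). In imEC-like cells it had 25.2 and 2.16 CPM, the latter from 13 UMIs, and the log2 ratio was -3.54 (-4.50 to -2.71). Its highest ratio, -2.04 (-2.21 to -1.87), was in PC-like cells.

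Egr1 differed most in mEC-like cells, with 79.3 CPM in WT and 9.70 CPM in KO, with a log2 ratio of -3.03 (-3.40 to -2.68), and least in PC-like cells, at -1.95 (-2.07 to -1.83). Jun had ratios from -2.08 (-2.37 to -1.80) in imEC-like to -1.38 (-1.48 to -1.27) in CBC-like cells. Fos had ratios from -2.33 (-2.67 to -1.998) in EEC-like to -1.05 (-1.13 to -0.97) in GC-like cells, where KO still had 150 CPM against 311 CPM in WT. GC-like cells were the class with the highest Fos level in KO.

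The members with smaller ratios over all cells varied more in direction between classes. Jund was lower in 5 classes, at most in EEC-like cells with -0.70 (-0.94 to -0.47), and was higher in KO in mEC-like cells, with 181 CPM in WT and 205 CPM in KO, with a log2 ratio of 0.18 (0.08 to 0.29). Set against the median gene of the class, Jund stood above 0 in TAC-like and imEC-like cells, at 0.13 and 0.31, and below it in TC-like cells, at -0.07. Ier2 had 143 CPM in WT and 137 CPM in KO CBC-like cells, a log2 ratio of -0.07 (-0.21 to 0.07), which became 0.19 against the median gene, and it had 104 and 45.8 CPM in mEC-like cells, a log2 ratio of -1.18 (-1.36 to -0.995). The mEC-like cells thus held the highest ratio of Jund and the lowest of Ier2.

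Klf6 and Atf3 had lower ratios in CBC-like cells, at -2.06 (-2.41 to -1.71) and -2.38 (-3.01 to -1.78), than in mEC-like cells, at -0.84 (-1.02 to -0.66) and -0.85 (-1.22 to -0.48). The value of Atf3 in CBC-like cells rests on 29 KO UMIs and depended on the gate. With classes taken from clusters of each matrix by itself it moved by 1.05 log2 units, the most of all class ratios. In EEC-like cells Atf3 had 54.8 CPM in WT and 5.28 CPM in KO, the latter from 7 UMIs, a log2 ratio of -3.38 (-4.76 to -2.23). Malat1 was also lower in KO in every class, with log2 ratios from -1.82 in EEC-like and -1.32 in GC-like cells to -0.51 in mEC-like cells, and its part in the ratios of the members was not tested.

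**Figure D3:**
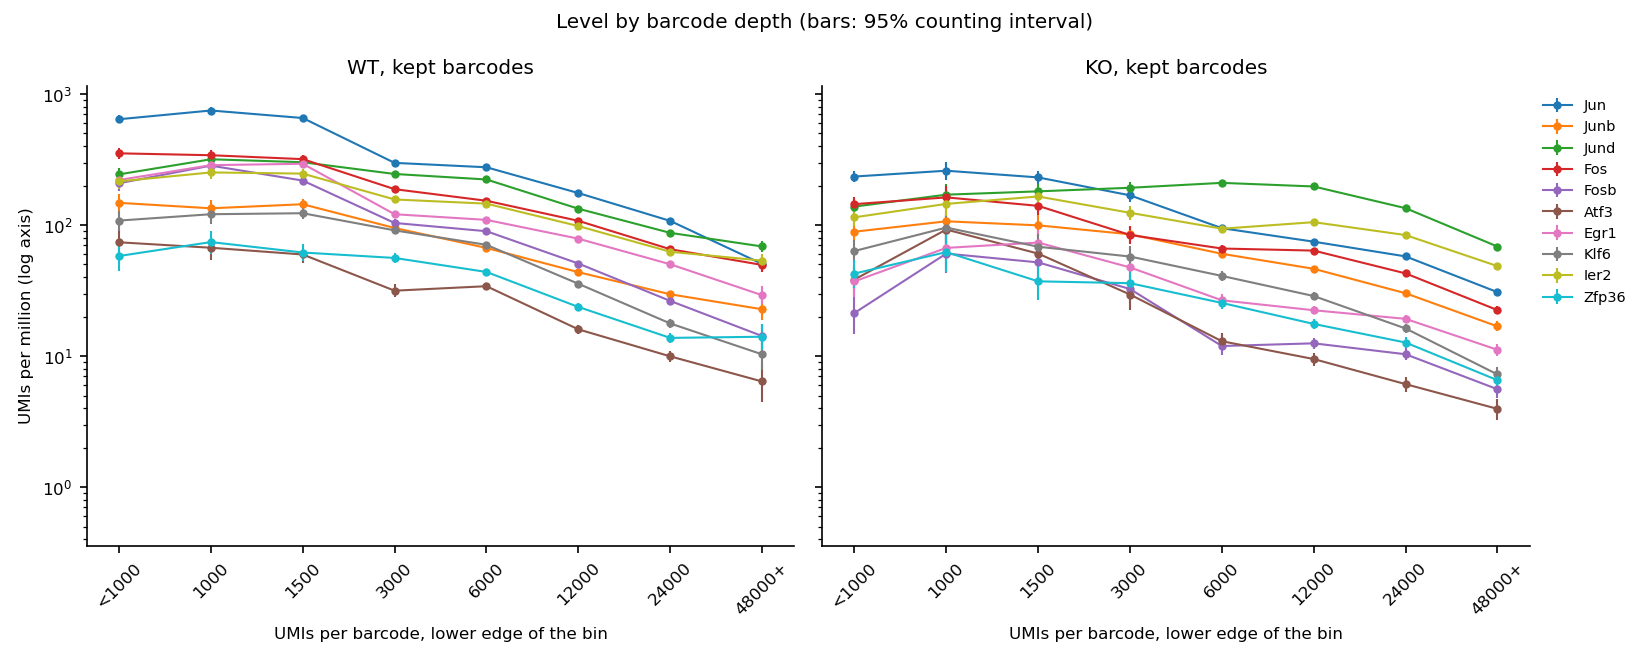
Level of each member in kept barcodes binned by their number of UMIs, in CPM on a log axis, in WT (left) and KO (right), with bars for the 95% counting interval. In WT all lines are lower from 12000 UMIs on than under 3000 UMIs, whereas in KO the line of Jund rises up to 12000 UMIs per barcode.

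By depth, the members took a larger share of the UMIs in shallow barcodes than in deep ones. Together they had 2271 CPM in WT barcodes under 1000 UMIs, 2423 CPM between 1500 and 3000 UMIs, 1212 CPM between 6000 and 12000 UMIs and 319 CPM from 48000 UMIs on. In KO the corresponding values were 924, 1108, 643 and 222 CPM. The 14 most abundant genes held 71.3% of UMIs from 48000 UMIs on in WT, against 12.5% between 6000 and 12000 UMIs.

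Between the deepest and the shallowest quartile of kept cells, each matrix by itself, the median log2 ratio of the members was -2.20 in WT and -1.78 in KO, where all genes had a median of -1.11 and -0.20. Jun had 704 CPM in the shallowest quartile of WT (up to 2118 UMIs) and 125 CPM in the deepest (from 13899 UMIs), a log2 ratio of -2.49 (-2.55 to -2.43), and in KO 235 and 50.5 CPM. Fosb had -2.86 (-2.97 to -2.76) in WT and -1.23 (-1.73 to -0.68) in KO. Jund had -1.57 (-1.66 to -1.48) in WT but -0.17 (-0.37 to 0.03) in KO, where it had 135 CPM in the shallowest and 119 CPM in the deepest quartile.

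Within a class the difference was mostly smaller. The median log2 ratio of the members between the deepest and shallowest quartile of a class had a median over the 8 classes of -0.21 in WT and -0.59 in KO. Members without a UMI in the shallowest quartile were left out of a class's median, which touched TC-like cells in both matrices and KO imEC-like cells. In WT TAC-like and mEC-like cells it was 0.04 and 0.12. It was far from 0 in PC-like cells, at -1.31 in WT and -2.78 in KO, where the shallowest quartile reached up to 13350 UMIs in WT and 8037 UMIs in KO, and in EEC-like cells, at -1.76 in WT and -1.32 in KO.

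**Figure D4:**
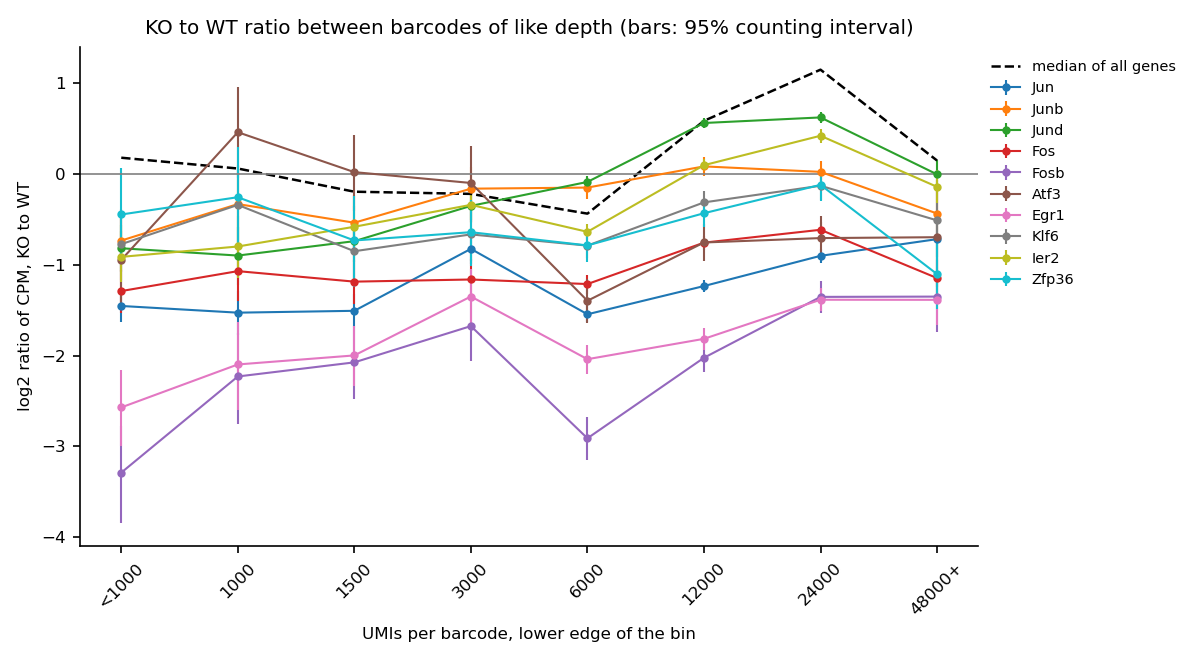
Log2 ratio of KO to WT for each member between kept barcodes of the same depth bin (bars, 95% counting interval), with the median over all genes as a dashed line. Fosb, Egr1, Jun and Fos lie below -0.60 in every bin, whereas Junb, Jund, Ier2 and Atf3 cross 0.

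Since KO cells were deeper, KO and WT were also compared between barcodes of like depth. Between 6000 and 12000 UMIs, with 3368 WT and 1445 KO barcodes, Jun had 276 CPM in WT and 94.7 CPM in KO, with a log2 ratio of -1.54 (-1.63 to -1.46), and Fosb had 89.7 and 11.9 CPM, a log2 ratio of -2.91 (-3.15 to -2.68). Egr1 stood at -2.04, Atf3 at -1.40 and Fos at -1.21, all below the median of all genes in this bin. Junb, with 66.9 and 60.4 CPM, had a log2 ratio of -0.15 (-0.27 to -0.03), and Jund, with 223 and 210 CPM, had -0.09 (-0.15 to -0.02), both above the median of all genes in that bin, -0.44.

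Over the 8 depth bins Fosb had log2 ratios from -3.29 to -1.35, Egr1 from -2.57 to -1.35, Jun from -1.54 to -0.72 and Fos from -1.29 to -0.61. Junb, Jund and Ier2 were above 0 in both bins between 12000 and 48000 UMIs, and in the deeper of these stood at 0.03, 0.62 and 0.42, where the median of all genes was 1.15 and the 14 most abundant genes held 69.9% of WT and 33.8% of KO UMIs. For Atf3 the ratios of the 3 bins between 1000 and 6000 UMIs, 0.46, 0.02 and -0.10, did not differ from 0 beyond counting error.

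Within classes at 6000 to 12000 UMIs the members had median log2 ratios of -1.22 in CBC-like, -0.85 in TAC-like, -1.20 in GC-like, -0.82 in imEC-like and -1.40 in mEC-like cells. The median in PC-like cells was -0.21 over the 8 members with enough UMIs, from 238 WT and 43 KO cells. The medians of all genes in the classes of this bin are not set beside these values, so a shift of all genes is not taken out. In that bin PC-like cells had Jun at -0.71, Fosb at -1.34 and Egr1 at -0.94, and Junb, Ier2 and Atf3 at 0.50, 0.60 and 0.41, of which only the interval of Ier2 lay above 0. Between 3000 and 6000 UMIs, with 167 WT and 84 KO PC-like cells, the median was 0.39 over 7 members, where all genes had 0.62. Between 24000 and 48000 UMIs, where 1286 WT and 424 KO PC-like cells lay, the median was -1.23, with Jun at 101 CPM in WT and 38.1 CPM in KO.

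**Figure D5:**
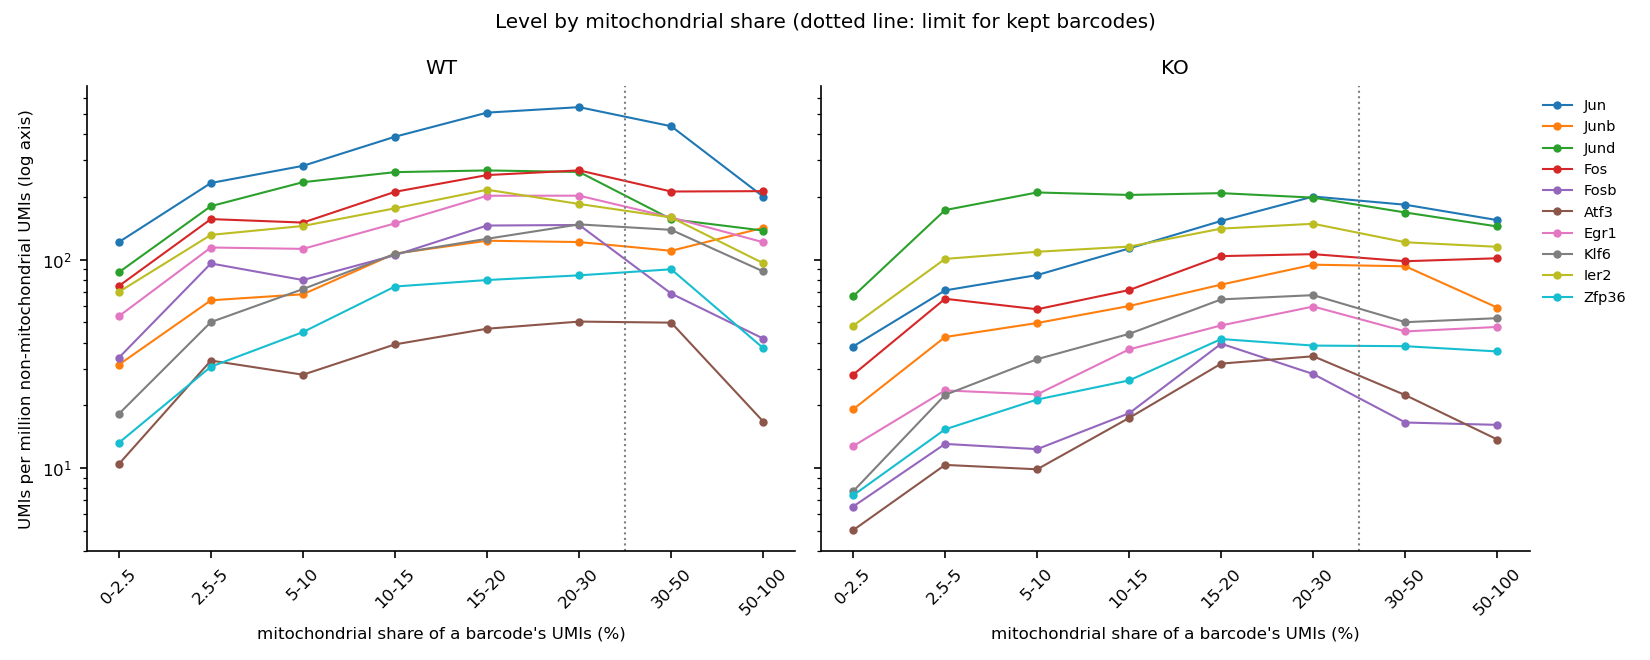
Level of each member by the mitochondrial share of a barcode's UMIs, in CPM of the non-mitochondrial UMIs on a log axis, in WT (left) and KO (right), for all barcodes with at least 200 genes. The 10 members together have 1972 CPM in WT and 909 CPM in KO in barcodes with 15 to 20% mitochondrial UMIs. In those with 20 to 30%, just within the limit for kept barcodes (dotted line), they have 2010 and 978 CPM.

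By mitochondrial share, with mitochondrial genes out of the denominator, the lowest levels were in barcodes with up to 2.5% mitochondrial UMIs, in which the members together had 514 CPM in WT and 240 CPM in KO. The highest were in those with 20 to 30%, with 2010 CPM in WT and 978 CPM in KO, against 1972 and 909 CPM at 15 to 20%. With all UMIs in the denominator the order of these bins turned, with 1524 and 735 CPM at 20 to 30% against 1637 and 753 CPM. Without mitochondrial genes, the members had 1583 and 837 CPM from 30 to 50%. Jun had 121 CPM in WT barcodes with up to 2.5% and 539 CPM in those with 20 to 30%, and in KO 38.3 and 201 CPM. Malat1 had 1274 CPM in the former WT barcodes and 13500 CPM in the latter. The median depth of these WT barcodes was 20904 and 1291 UMIs. PC-like cells had a median mitochondrial share of 1.19% in WT and 2.07% in KO. The other classes had 4.33% or more in WT and 5.24% or more in KO. Cell class, depth, mitochondrial share and Malat1 thus moved together, and their part in the levels of the members was not tested.

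Barcodes over the limit of 30% were compared with kept barcodes in the same matrix. The median log2 ratio of the members was 0.13 in WT and 0.10 in KO, against -0.29 and -0.56 for all genes. With mitochondrial genes left out of the denominator it was 0.88 in WT and 1.01 in KO, against 0.45 and 0.34 for all genes, while Malat1 stood at 2.43 and 2.91. By that measure Klf6 and Zfp36 were highest in WT, at 1.52 (1.31 to 1.72) and 1.46 (1.19 to 1.71), and Jun was highest in KO, at 1.29 (1.17 to 1.42). Jund was close to 0 in both matrices, at -0.03 (-0.22 to 0.16) and 0.06 (-0.07 to 0.18), and so was Fosb in WT, at 0.02 (-0.28 to 0.30). Barcodes past the limit thus held the members unevenly, with Jund and, in WT, Fosb at the level of kept barcodes.

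Most members had higher levels in cells with more Fos, to a different extent in different classes. TAC-like cells with at least 5000 UMIs were each drawn down to 5000 UMIs and split by their Fos UMIs, which is a split on a member and so a description only. WT TAC-like cells with no Fos UMI (844 cells) had 142 CPM of Jun, 43.8 CPM of Egr1, 27.7 CPM of Fosb and 7.11 CPM of Atf3. Those with 3 or more Fos UMIs (73 cells) had 622 CPM of Jun, 301 CPM of Egr1, 345 CPM of Fosb and 107 CPM of Atf3. Jund, by contrast, had 196 and 282 CPM, and Malat1 had 3940 and 5570 CPM. The mitochondrial share was 6.80% and 6.01% in the median cell.

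In GC-like cells Fosb followed Fos in both matrices. In WT it had 110 CPM in cells with no Fos UMI, 233 CPM in those with 1 to 2 and 425 CPM in those with 3 or more. In KO GC-like cells it had 19.9, 50.6 and 72.0 CPM, the last from 18 UMIs in 50 cells. Zfp36 had 27.1, 26.5 and 24.0 CPM in these KO cells, the last from 6 UMIs, too few for a direction. In the WT GC-like cells it had 51.0, 53.2 and 89.6 CPM. Jund had 214, 273 and 256 CPM in the KO cells. Between GC-like cells with 1 to 2 Fos UMIs, Fosb had 434 UMIs in 372 WT cells and 63 UMIs in 249 KO cells, and Jun had 482 CPM in WT and 155 CPM in KO. Jund had 353 and 273 CPM in these cells, and Malat1 had 5215 and 2635 CPM. Jund differed from this in mEC-like cells with 1 to 2 Fos UMIs, where it had 204 CPM in WT and 286 CPM in KO. In PC-like cells with 1 to 2 Fos UMIs, Zfp36 had 14.5 CPM from 60 UMIs in WT. In KO it had 24.1 CPM from 13 UMIs, too few for a direction.

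In WT PC-like cells the levels differed less between cells with no Fos UMI (2016 cells) and with 3 or more (36 cells). Jun had 104 and 172 CPM, Egr1 had 49.3 and 94.4 CPM and Zfp36 had 13.7 and 16.7 CPM, while Malat1 had 1067 and 1744 CPM. In the 36 cells these rest on 31 UMIs of Jun, 17 of Egr1 and 3 of Zfp36. The 14 most abundant genes held 72.0% of the UMIs of WT PC-like cells, which left fewer other UMIs for this split, and the part of this was not tested. In WT mEC-like cells Fosb had 19.7 CPM in cells with no Fos UMI and 42.7 CPM in those with 3 or more.

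Over the 16 sums of a class in a matrix, each member was set against the mean log2 level of the other 9. Pearson's r was highest for Fos, at 0.98, Egr1, at 0.91, and Jun, at 0.90, and lowest for Jund, at 0.61, and Klf6, at 0.73. Within the 8 KO classes alone it was 0.95 for Fos and 0.25 for Klf6. Within the 8 WT classes alone it was 0.82 for Jund and 0.97 for Ier2, as for Fos, and lowest for Klf6, at 0.74, and Zfp36, at 0.76. The sums of a matrix share its depth and preparation, and the values over all 16 also hold the difference between KO and WT, so they are a description. Outside the members and the fixed lists, the 5 genes whose levels were most like the mean of the members were Gcc2 (r = 0.89), Hdlbp (0.88), Tm9sf3 (0.84), Os9 (0.82) and Mbnl2 (0.81), among 1549 genes with at least 50 UMIs in every sum. Gcc2 had 33.4 to 337 CPM over the WT classes and 12.4 to 96.5 CPM over the KO classes.

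In shares of cells, each drawn down to 1000 UMIs with 1468 shallower WT and 2257 shallower KO cells left out, a UMI of Jun was found in 22.4% of WT kept cells (95% Clopper-Pearson interval 21.6 to 23.1) and in 9.33% of KO kept cells (8.63 to 10.1). For Fosb the shares were 8.49% and 1.69%, and for Jund 17.8% and 16.0%. Among EEC-like cells Jun was found in 52.5% of 177 WT cells (44.9 to 60.1) and 24.7% of 85 KO cells (16.0 to 35.3). Without drawing down, Jun had been found in 60.3% of WT and 38.4% of KO kept cells. No class is known to lack these genes, so the share that free RNA gives could not be set beside them.

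Beside the members, 4 lists held other genes of the same response, chosen like the members with earlier results of these data known. Over all kept cells 14 of their 54 genes with enough UMIs (25.9%, beside 7.37% of all genes) were at least 2-fold lower in KO and 1, the kinase gene Sgk1 at 1.02, which was singled out after its value was seen, was at least 2-fold higher. Of 16 other immediate early transcription factors 6 were lower, led by Nr4a1, an orphan nuclear receptor, at -1.93 (-2.19 to -1.68), Klf2 at -1.63 (-1.93 to -1.33) and Egr2 at -1.32 from 39 and 14 UMIs, and the median of the list was -0.77. The intervals of 6 others lay above 0, among them, named after their values were seen, Id2 at 0.94, Id3 and Id1 at 0.80 and the growth gene Myc at 0.78. In PC-like cells 4 of 15 genes of the list were at least 2-fold lower, beside 5.37% of all genes tested in that class. Another 4 were at least 2-fold higher there, for which the share of all genes was not counted. Of 18 RNA decay and feedback genes 4 were lower, among them Dusp2 at -2.21 from 57 and 11 UMIs, Dusp1, a phosphatase that turns off MAP kinases, at -1.48 (-1.59 to -1.37) and the kinase gene Sik1 at -1.42, with a median of -0.53.

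Of 13 other induced genes 3 were lower, which were Arc at -1.75, Ppp1r15a at -1.49 (-1.66 to -1.33) and Cyr61 at -1.44, and the median was -0.62. Among 7 partners of the AP-1 proteins 1 passed the fold, Maff, at -1.07, and Mafk and Atf2 stood at -0.82 and -0.63. The factors that act upstream, such as Srf at -0.52 (-0.68 to -0.37) and the receptor gene Egfr at -0.61, had a median of -0.42 over 11 genes, and only Elk3, at -1.15 with 77 and 31 UMIs, passed the fold.

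Heat shock genes, which also respond to stress but through another factor, were mostly higher in KO over all cells. Of 11 genes none was at least 2-fold lower and 3 were at least 2-fold higher in KO, beside 3.94% of all genes. Hspa1b stood at 1.65 (1.42 to 1.88), Hspa1a at 1.62 (1.28 to 1.97) and Hspe1 at 1.03 (1.01 to 1.05), and the median was 0.72, while Hspb1 stood at -0.97 (-1.79 to -0.19). In imEC-like cells the median of the list was 0.04, and in mEC-like cells it was -0.28, with the intervals of 5 of 8 genes below 0, where all genes had -0.39. The 4 transcripts known to stay in the nucleus were lower in KO, with Kcnq1ot1 at -2.35 (-2.53 to -2.18), Meg3 at -2.16 from 45 and 9 UMIs, Neat1 at -0.83 (-0.87 to -0.79) and Malat1 at -0.48 (-0.49 to -0.48).

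The ratio of KO to WT also differed with the summed exon length of a gene. In the shortest quartile of the tested genes, up to 2587 bases, the median log2 ratio was 0.48, and in the longest quartile it was -0.47. Junb, Jund, Fos, Atf3 and Ier2 were in the shortest quartile, where 5.69% of genes were at least 2-fold lower in KO. Fosb, Egr1 and Klf6 were in the third, where the median was -0.18 and 6.15% of genes passed that fold. Among the members the 2 shortest, Ier2 with 1522 bases and Jund with 1668 bases, had the ratios nearest to 0, and the 2 longest, Egr1 with 4484 bases and Fosb with 6243 bases, had the lowest, although Fos and Atf3, with 2352 and 2154 bases, were lower than Klf6 with 4391 bases. The part of length, depth or denominators in the ratios of the members was not tested.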

How the data were processed

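The deposited matrices hold raw counts of UMIs per gene and cell barcode, 1 pooled matrix per group, made by the authors from 10x Genomics 3′ libraries. The matrix headers name Cell Ranger 4.0.0, whereas the submitters' processing notes name Cell Ranger 2.1.1 and build mm10, and the methods give chips of chemistry v2 or v3, which could not be resolved. Mapping used default parameters per the methods, which count reads in the sense direction. Members and lists were chosen with earlier results of these data known. Barcodes with at least 200 genes and at most 30% mitochondrial UMIs were kept, the latter being the limit that the study states. Kept cells with at least 1500 UMIs, a floor set after seeing the depth of the barcodes, were gated in each matrix by the mean clipped z-score of a class's markers (at least 0.75, and 0.25 above the next class), and 1917 WT and 1370 KO cells stayed unassigned. The classes are not those of the study, which were not used here, and may hold other cells. Doublets were kept, and an alternative left out the 10% of cells with the highest doublet scores.

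UMIs were summed over cells and given as CPM. Intervals are exact Poisson for CPM, exact conditional binomial for log2 ratios and Clopper-Pearson for shares, at 95%, and cover counting error only. With 1 pool per group there was no test and called means past a 2-fold difference among genes with at least 50 UMIs, where a count of 0 was set to 3. Named were all members, up to 3 genes of each list with the largest absolute ratio, and the 5 genes most alike in pattern. Python 3.11.15, numpy 2.4.6, scipy 1.17.1, scikit-learn 1.9.0 and leidenalg 0.10.2 were used, and ratios, intervals and thinning were tested on simulated data. Exon lengths and positions are from GENCODE M21 (GRCm38), which held 27645 (98.7%) of the gene identifiers. Promoters were searched in the 8 members other than Egr1 and Ier2 and are printed for 4, since the RefSeq starts of Atf3, Jund and Zfp36 lie far from those of GENCODE. The alternatives tried are other denominators and scalings, mean log values, thinning to 1000 UMIs, other limits on genes, mitochondrial share and depth, stricter gates and clusters of each matrix by itself.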

Additional observations from a re-analysis of the deposited data

How the results depend on the processing

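No paired analysis was possible because the samples of a group are pooled in 1 matrix and no cell carries a sample number, and for the same reason no replicate could be left out. The median log2 ratio of the members of KO to WT, -1.07, was -1.41 with the genes above 1% of UMIs out of the denominator, -0.90 with cells thinned to 1000 UMIs and -1.26 without PC-like and unassigned cells, and as a difference of mean log2(UMIs per 10000 + 1) it was -0.21, on a scale that cannot be set beside a ratio. Under the other 8 alternatives it lay between -1.10 and -0.999. The log2 ratio of the highest to the lowest class, 2.56 in WT and 1.95 in KO, was 2.84 and 2.08 with stricter gates, 2.87 and 2.07 with clusters, 2.18 and 1.09 without the abundant genes in the denominator and 2.48 and 1.48 after thinning, and EEC-like cells stayed highest in all of these, whereas the lowest class became imEC-like or TAC-like cells in the last 2. The ratio of the deepest to the shallowest quartile, -2.20 in WT and -1.78 in KO, was -2.08 and -2.06 after thinning, -2.34 and -2.12 at up to 15% mitochondrial UMIs, -0.21 and -0.59 within classes, and -1.29 in WT without the abundant genes. As a difference of mean log values it was -0.11 in WT and turned to 0.083 in KO, and the cause was not tested. The ratio of barcodes over to within the mitochondrial limit, 0.13 and 0.10, was 0.88 and 1.01 without mitochondrial genes in the denominator, 0.69 and 0.65 at a limit of 15% and 0.71 and 0.81 with at least 500 genes. Atf3 in PC-like cells, -1.01, turned to 0.46 after thinning and 0.41 at 6000 to 12000 UMIs. Of the 5 members at least 2-fold lower over all cells, 5 passed that fold at 6000 to 12000 UMIs and 4 after thinning, where Atf3 had -0.57. Within classes, 50 of 78 ratios were 2-fold or more, and of those with a value 47 of 50 were still so with clusters, 27 of 31 after thinning, 25 of 34 at 6000 to 12000 UMIs and 4 of 50 as differences of mean log values. The share of all genes past that fold is not given for these alternatives, so the counts of members under them are a description only. Few cells limit KO EEC-like (85) and TC-like (73) cells, where Fosb had 34 and 4 UMIs. The limits on UMIs per cell, the set without PC-like and unassigned cells and the depth ratio without the abundant genes were chosen after seeing the data.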
